A study of Caenorhabditis elegans with 2 samples.

Results

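The genes described here build and regulate meiotic chromosomes in Caenorhabditis elegans. They are 35 genes of the chromosome axis, cohesin, synapsis, pairing, double-strand breaks and crossing over, out of 46135 genes in the deposited table. They were chosen by name from knowledge of the pathway, with earlier results of these data known. Of the 35, 33 were found by the gene description in the table, and dsb-1 and dsb-2 were found under their sequence names through RefSeq. The study compared whole larvae carrying the lsm-1(tm3585) allele with larvae of the N2 wild type, with 1 rRNA-depleted library per genotype. Both strains were labelled as L3 and had grown from synchronised L1 larvae for 26 hours at 25 °C. The mutant strain was backcrossed to N2 beforehand. LSM-1 belongs to the Lsm complex of the cytoplasm, which helps to remove the cap of messenger RNAs that are to be degraded.

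In meiosis each chromosome is organised along a protein axis, pairs with its homologue, and is joined to it along its length by the synaptonemal complex. Programmed breaks are then repaired by strand exchange, and some of the repair events become crossovers, which hold the homologues together until they are separated. In the hermaphrodite the first germ cells enter meiosis during larval life, at around the L3 stage. Some of the genes of repair and cohesin also act outside the germ line.

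The wild-type library held about 7.02 M fragments and the mutant library about 8.57 M, as estimated from the steps between low values. All levels below are in FPKM, which counts fragments per kilobase of transcript after scaling for library size. A difference is the log2(FPKM + 1) of the mutant library less that of the wild-type library, and this scale understates changes in genes as low as these. A gene was called measured where 1 or both libraries gave it at least 1 FPKM. Over 14838 measured genes the median difference was 0.24, so a centred difference (the difference minus that median) is given beside the difference where it matters. With 1 library per genotype the differences have no replicate check, and no p-value was computed. The lsm-1 transcript itself stood at 5.94 FPKM in mutant larvae and 10.2 in wild-type larvae, a ratio of 0.581 with a 95% counting interval from 0.341 to 0.978, which is a weak check of the genotype because the whole gene is summed.

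Most meiotic chromosome genes stood lower in the mutant library. Of the 35 genes, 31 were measured and 4 (zim-1, him-17, zhp-3 and brd-1) were listed at 0 in both libraries, so that the filter removed no gene that had a value. For him-17 the authors' deposited table gives the test as failed, so its values of 0 can be failed estimates. Of the 31, 26 had a difference below 0, where 35.9% of all measured genes and 31.8% of measured protein-coding genes did. The median difference was -0.61, against 0.24 for all measured genes and 0.26 for measured protein-coding genes, and the centred median was -0.85. After centring, 29 of the 31 lay below the median of measured genes, where 50% lie by construction, and the exceptions were him-8 and him-1. The size rule was a difference of at least 1 in either direction, or 2-fold on this scale. By it 6 members were lower (htp-2, lab-1, zim-3, plk-2, pch-2 and rad-50) and 2 were higher (him-8 and him-1). Of these, plk-2, pch-2 and rad-50 were listed at 0 in mutant larvae and him-1 at 0 in wild-type larvae. Such values can be failed estimates in either direction. The same rule held for 12.2% of all measured genes in the lower direction and for 13.6% in the higher direction. After centring, 12 members were lower and 1 was higher, where 14.7% of all measured genes were lower.

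The 27 members above 0 in both libraries ran from 0.936 to 6.63 FPKM in wild-type larvae, with a median of 2.41, and from 0.207 to 9.68 FPKM in mutant larvae, with a median of 1.26. Their median ratio of mutant to wild type was 0.529, and 23 of the 27 ratios lay below 1. Listed at 0 in mutant larvae alone were 3 members of the 31, where 9.05% of all measured genes were. Among all 12284 measured genes above 0 in both libraries the median ratio was 1.23. Among the 6396 protein-coding genes in the same range of mean level, 0.788 to 6.72 FPKM, it was 1.21, and 35.6% of them had a difference below 0. A ratio below 0.5 was found for 11 of the 27 members, for 8.85% of all measured genes above 0 in both libraries and for 9.38% of the genes in that range. On the scale with the pseudocount, 3 of the 27 were lower by 2-fold, where 3.5% of the genes in that range were.

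**Figure D1:**
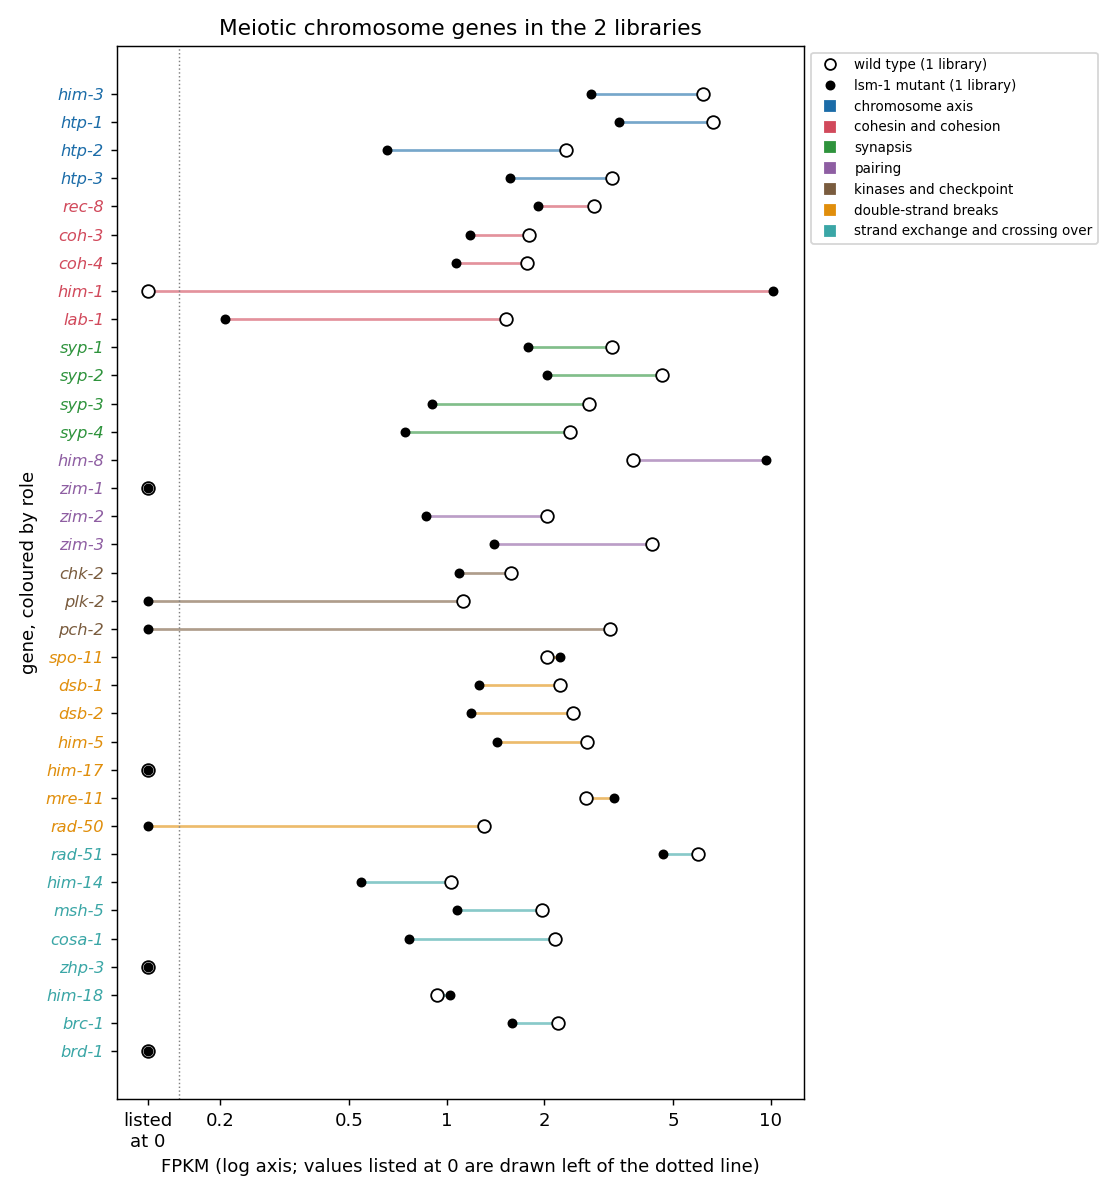
FPKM of each of the 35 meiotic chromosome genes in the wild-type library (open circles) and the lsm-1 mutant library (filled circles), on a log axis with values listed at 0 drawn at the left edge and genes coloured by role. The filled circle lies left of the open one for most genes. The opposite order is shown by him-8 (9.68 against 3.75 FPKM), mre-11, spo-11, him-18 and him-1. The value of him-1 listed at 0 in wild-type larvae can be a failed estimate.

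The genes of the chromosome axis were lower in mutant larvae in all 4 cases. They encode HORMA domain proteins that lie along the axis and control synapsis and repair. The transcript of him-3 stood at 2.79 FPKM in mutant larvae and 6.16 in wild-type larvae, a ratio of 0.452 with a counting interval from 0.271 to 0.736. That of htp-3, whose product recruits the other axis proteins, stood at 1.57 against 3.23, a ratio of 0.485 (0.297 to 0.760). The close relatives htp-1 and htp-2 stood at 3.41 against 6.63 and at 0.655 against 2.33, with ratios of 0.514 and 0.281. These genes are similar in sequence, and how their shared reads were divided is not stated in the labels or headers. The single values are therefore uncertain. Summed over the 4 genes, the level was 8.42 FPKM in mutant larvae and 18.3 in wild-type larvae, a ratio of 0.459. The median difference of the group was -0.86, or -1.09 after centring. None of the 4 passed the authors' test, for which him-3 was marked as having too few data.

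The 4 synapsis genes were also lower. The products of syp-1, syp-2, syp-3 and syp-4 form the central region of the synaptonemal complex. The transcript of syp-1 stood at 1.78 FPKM in mutant larvae and 3.24 in wild-type larvae, with a ratio of 0.550 (0.376 to 0.819). That of syp-2 stood at 2.05 against 4.61, with a ratio of 0.444 (0.240 to 0.798). For syp-3 the values were 0.905 and 2.74, with a ratio of 0.330 (0.112 to 0.799). For syp-4 they were 0.746 and 2.41, with a ratio of 0.310 (0.148 to 0.589). All 4 intervals lay below 1, and the levels summed to 5.48 FPKM against 13.0, a ratio of 0.422. In the authors' deposited table syp-4 had q = 0.0699 and was not called, and none of the others was called either. The median difference of the group was -0.92, or -1.16 after centring.

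The 4 cohesin and cohesion genes above 0 in both libraries had a difference below 0. Cohesin rings hold sister chromatids together, and meiotic rings contain the kleisin subunits encoded by rec-8, coh-3 or coh-4. The transcript of rec-8 stood at 1.92 FPKM in mutant larvae and 2.84 in wild-type larvae, a ratio of 0.675. The current annotation gives rec-8 transcripts from 75 to 2465 nt, so no counting interval is given for it. In the authors' deposited table rec-8 was not called (p = 0.697, q = 0.892). The near-identical pair coh-3 and coh-4, whose single values are uncertain for that reason, stood at 1.18 against 1.80 and at 1.07 against 1.78. For coh-3 the counting interval of the ratio held 1 (0.342 to 1.17). For lab-1, whose product protects cohesion on the long arms of the paired chromosomes, the levels were 0.207 and 1.52 FPKM. The lab-1 ratio of 0.136 rested on about 1.5 and 9.3 fragments, with an interval from 0.0191 to 0.879. The gene him-1, which encodes SMC-1, a cohesin subunit that is also used outside the germ line, was listed at 0 in wild-type larvae and at 10.2 FPKM in mutant larvae, and the authors' deposited table gives its test as failed. A value of 0 for a gene that dividing cells need can be a failed estimate, so no fold is given for it.

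The pairing genes went in both directions. The products of him-8, zim-1, zim-2 and zim-3 are zinc finger proteins that bind the pairing centres, HIM-8 that of the X chromosome and the ZIM proteins those of the autosomes, and the genes lie close together on chromosome IV. The transcript of zim-3 stood at 1.40 FPKM in mutant larvae and 4.30 in wild-type larvae, a ratio of 0.325 (0.197 to 0.515), and it was lower past the test in the authors' deposited table (q = 0.0444). That of zim-2 stood at 0.864 against 2.04, a ratio of 0.424 (0.220 to 0.779), and was not called (q = 0.287). The gene zim-1, listed at 0 in both libraries, shares 223 nt of exon with zim-2 on the same strand. The him-8 transcript was the only member above 0 in both libraries that stood at least 2-fold higher in mutant larvae, at 9.68 against 3.75 FPKM. In the authors' deposited table that difference was far from a call (p = 0.861, q = 0.971). The current annotation gives him-8 a second transcript of 120 nt beside one of 1254 nt, and an FPKM that rests on so short a transcript is inflated by few fragments. Whether this entered the him-8 value was not tested, and no counting interval is given for it.

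Of the regulators of meiotic prophase, chk-2 encodes a kinase that starts pairing and break formation, plk-2 encodes a Polo-like kinase that acts at the pairing centres, and pch-2 encodes an ATPase that remodels HORMA domain proteins. The chk-2 transcript stood at 1.09 FPKM in mutant larvae and 1.58 in wild-type larvae, a ratio of 0.688 whose interval held 1 (0.389 to 1.26). Both others were listed at 0 in mutant larvae, with plk-2 at 1.13 and pch-2 at 3.19 FPKM in wild-type larvae. The further FPKM pair of the same libraries also listed them at 0 in mutant larvae, with 0.989 and 2.80 FPKM in wild-type larvae. In the authors' deposited table plk-2 was marked as having too few data and pch-2 had p = 1. Their values of 0 can be failed estimates, so no fold is given.

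Among the genes for double-strand breaks, 4 of 6 measured had a difference below 0. SPO-11 is the enzyme that makes the breaks, and DSB-1, DSB-2, HIM-5 and HIM-17 are needed for normal break formation. The transcripts of dsb-1, dsb-2 and him-5 stood at 1.26, 1.19 and 1.43 FPKM in mutant larvae against 2.24, 2.45 and 2.71 in wild-type larvae. Their ratios of 0.563, 0.486 and 0.529 were close to each other, but the intervals of dsb-1 (0.268 to 1.19) and dsb-2 (0.208 to 1.20) held 1. No interval is given for him-5, to which the current annotation gives transcripts of 144 and 1342 nt. In the authors' deposited table its difference was far from a call (p = 0.820, q = 0.956). The spo-11 transcript stood at 2.23 against 2.04 FPKM, a ratio of 1.09 (0.573 to 1.96). The further FPKM pair listed spo-11 at 0 in wild-type larvae and at 1.95 in mutant larvae, which is the same order with an unlike size. Its difference fell below 0 after centring (-0.15) and with both libraries scaled to the same protein-coding sum (-0.10), so its order is uncertain.

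The nuclease complex that trims broken ends is also used outside the germ line. Its gene mre-11 stood at 3.28 FPKM in mutant larvae and 2.69 in wild-type larvae, a ratio of 1.22 (0.833 to 1.82), which is close to the median ratio of all measured genes. Its partner rad-50 was listed at 0 in mutant larvae and at 1.31 FPKM in wild-type larvae, and the authors' deposited table called it lower (q = 0.000761). The further FPKM pair listed rad-50 at 0 in both libraries, so that call rests on a value that the other pair does not give. With zim-3 it made 2 members called lower of 28 with a usable test, where 1.41% of such genes were called lower, and no member was called higher, where 2.35% of genes were. Of the 28, 8 were lower and 0 were higher at an unadjusted p under 0.05 in the authors' deposited table, where 5.74% of genes with a usable test were lower.

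Of the genes of strand exchange and crossing over, 5 of 6 measured had a difference below 0. RAD-51 is the recombinase that carries out strand exchange, and its transcript stood at 4.63 FPKM in mutant larvae and 5.98 in wild-type larvae, a ratio of 0.775 (0.540 to 1.13). HIM-14 (the MSH-4 protein) and MSH-5 act as a pair that stabilises crossover intermediates. Their transcripts stood at 0.543 against 1.03 and at 1.08 against 1.98, with ratios of 0.525 and 0.544, and the interval lay below 1 for msh-5 (0.357 to 0.840) but not for him-14 (0.229 to 1.12). For cosa-1, whose product marks crossover sites, the values were 0.765 and 2.16, with a ratio of 0.354 (0.131 to 0.825). The genes brc-1, the worm BRCA1, and him-18, the scaffold of repair nucleases known as SLX-4, stood at 1.59 against 2.20 and at 1.02 against 0.936. The him-18 ratio of 1.09 had an interval from 0.499 to 2.19, and brd-1, the partner of brc-1, was listed at 0 in both libraries. None of these genes was called in the authors' deposited table. The median difference of the 6 measured genes was -0.35, or -0.59 after centring.

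Counting error was large at this depth. A counting interval of the ratio was formed for the 22 members above 0 in both libraries whose annotated transcripts have similar lengths, and it covers counting error only. Between about 9.3 and 69.5 fragments lay behind these members in wild-type larvae and between 1.5 and 69.1 in mutant larvae. The interval lay below 1 for 13 of them, where 9.32% of measured genes with such an interval did, and held 1 for the other 9. The interval lay above 1 for 0 of the members, where 33.8% of genes did. Against the median ratio of measured genes, 1.23, the interval lay below it for 18 of the 22, where 17.6% of genes did. The other 5 members above 0 in both libraries (rec-8, coh-4, him-8, him-5 and brc-1) have a transcript shorter than 0.5 of the longest one, and their fragment numbers are uncertain.

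**Figure D2:**
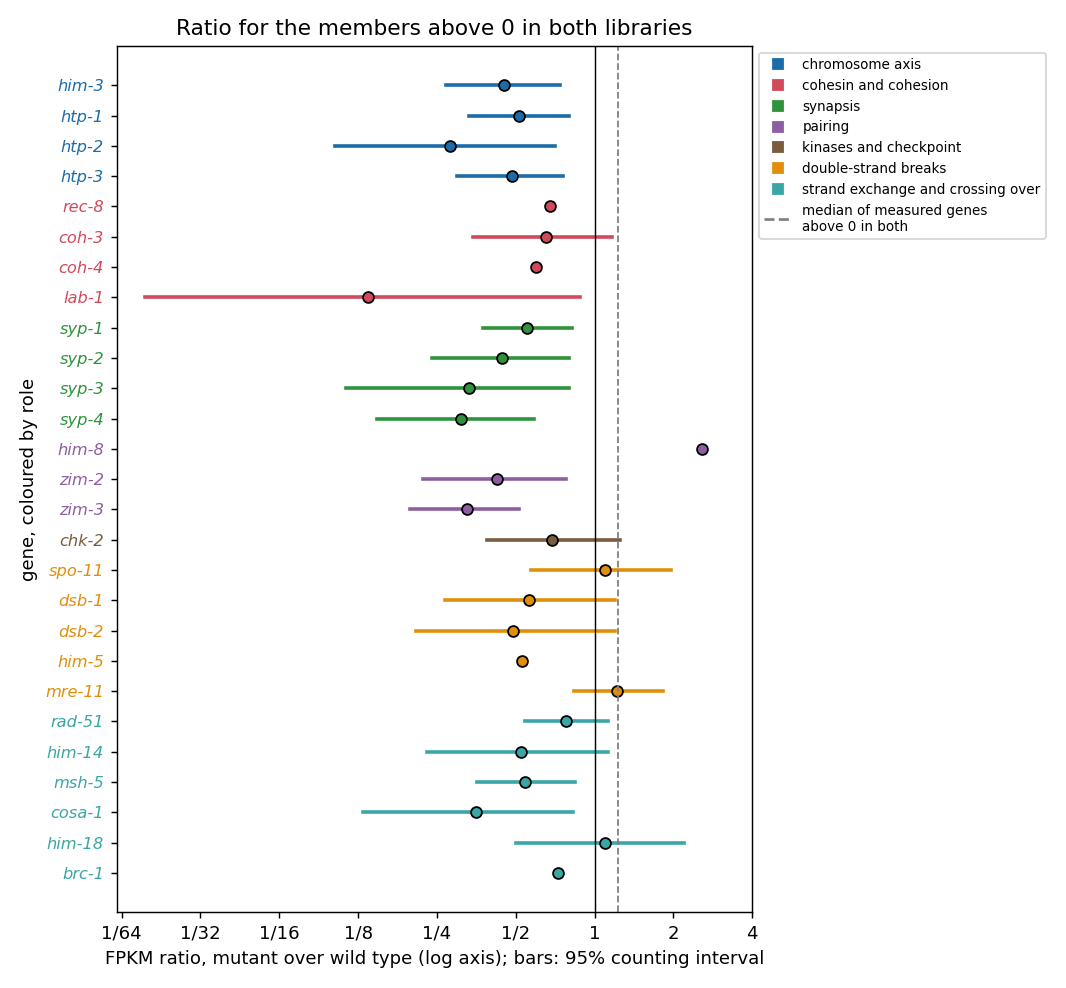
Ratio of FPKM in mutant larvae to FPKM in wild-type larvae on a log axis for the 27 members above 0 in both libraries, with 95% counting intervals for 22 of them, a solid line at 1 and a dashed line at the median ratio of measured genes (1.23). The points of all axis and synapsis genes lie between 0.281 and 0.550, and those of mre-11, spo-11 and him-18 lie between 1 and the dashed line.

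Sorted by a list of genes also used outside meiosis, the members divided further. The list holds him-1, mre-11, rad-50, rad-51, brc-1, brd-1 and him-18, a division made after the values were seen. Whether members left off it also act outside meiosis was not examined. Among those left off are plk-2 and pch-2, with differences of -1.09 and -2.07. The other 25 measured members had a median difference of -0.70, or -0.94 after centring, and 23 of the 25 had a difference below 0, all but him-8 and spo-11. The 6 measured genes on the list had a median difference of -0.12, or -0.36 after centring, with 3 of the 6 below 0 and 5 of the 6 below the median of measured genes. The difference between these groups was not tested, and it depends on which genes the list holds.

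**Figure D3:**
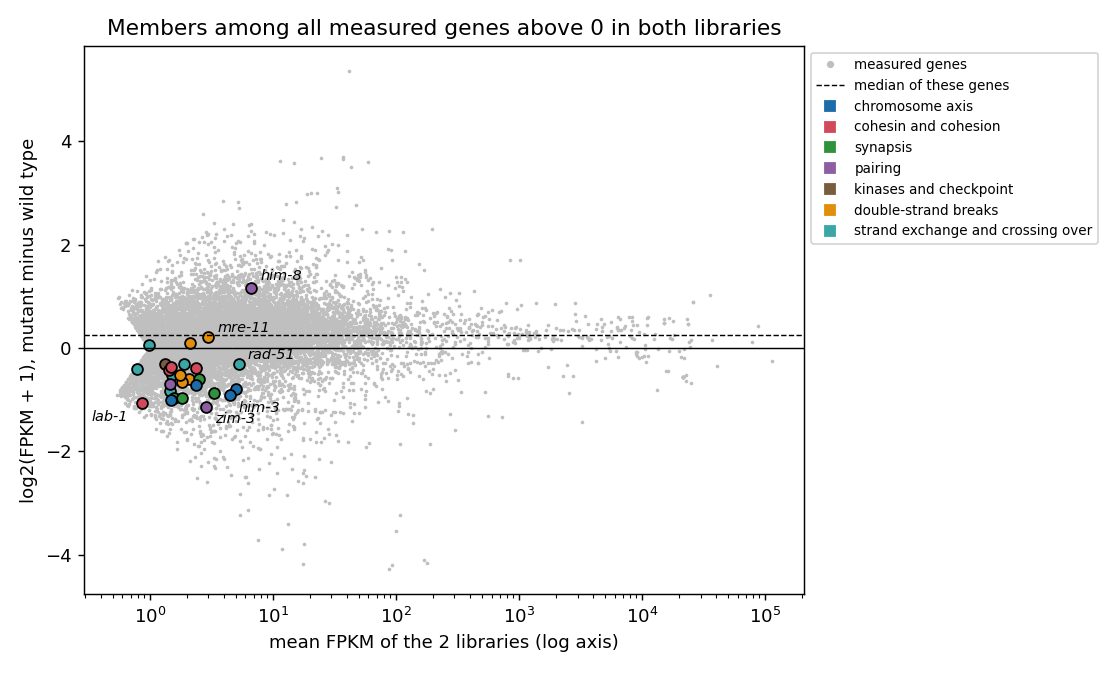
Difference in log2(FPKM + 1), mutant minus wild type, against the mean FPKM of the libraries on a log axis, for the 12284 measured genes above 0 in both libraries (grey) and the 27 members among them (coloured by role). The members lie at the low end of the level range and mostly under the line at 0, with him-8 as the only one that stands well above it.

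By position, 12 of the 35 genes lie on chromosome IV, 9 on V, 7 on I, 4 on III, 3 on II and 0 on the X chromosome, which held 14.6% of the measured protein-coding genes. The median difference of the measured members was -0.97 on chromosome I, -0.66 on II, -0.31 on III and -0.52 on both IV and V. Measured protein-coding genes of the same chromosomes had medians between 0.21 and 0.27, so the lower values were not those of 1 chromosome. In the current annotation the exons of 15 members overlap those of another gene, and the strand setting of the counting is not given in the sources used here. The longest overlaps were 517 nt for syp-1 with F13A7.14 and 327 nt for coh-4 with Y45G5AM.7, both on the same strand. On the opposite strand cosa-1 shares 178 nt with Y71H2AM.12 and him-14 shares 154 nt with nos-2. Reads from these stretches cannot be assigned with certainty.

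The rest of the pathway was described from 50 other genes of meiosis and recombination, all found in the table. Of these, 47 were measured, and their median difference was -0.07, or -0.31 after centring. A difference below 0 was found for 25 of the 47, where 35.9% of all measured genes had one. Among all genes with a usable test, 1.41% were called lower and 2.35% higher. Of the 42 genes of this list with such a test, the authors' deposited table called 2 lower and 0 higher. They are dsb-3, a partner of dsb-1 and dsb-2, at 0.648 FPKM in mutant larvae and 3.02 in wild-type larvae (q = 0.0267), and zhp-1, a RING finger gene related to zhp-3, listed at 0 in mutant larvae and at 3.38 in wild-type larvae (q = 0.0250). At the low end of those above 0 in both libraries stood dsb-3, him-19 (0.708 against 2 FPKM), which is needed for pairing and breaks, and syp-6 (1.11 against 2.42), a further gene of the synaptonemal complex. At the high end stood the akirin gene akir-1 (21.5 against 9.74), nbs-1 (2.90 against 1.06), which encodes the partner of MRE-11 and RAD-50, and pph-4.1 (9.42 against 6.07), a phosphatase gene that also acts at centrosomes. The genes mus-81, zyg-12, mei-1 and vrk-1 were listed at 0 in wild-type larvae, and msh-2 and brc-2, like zhp-1, at 0 in mutant larvae. With an FPKM of at least 5 the median difference of this list turned to 0.52 over 14 genes. The median of all measured genes was 0.34 at that limit. Among the 14 are mus-81, zyg-12, mei-1 and vrk-1, listed at 0 in wild-type larvae, and msh-2, listed at 0 in mutant larvae.

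Markers of the germ line and of body tissues were read beside these values. In libraries of whole larvae, fewer germ cells and less RNA per germ cell cannot be told apart, and neither can a slightly different stage of the cultures. In the list of the mitotic germ line and germ granules 14 of 19 measured genes had a difference below 0, with a median of -0.24, or -0.47 after centring. There the RNA helicase gene glh-2 stood at 1.02 FPKM in mutant larvae and 3.56 in wild-type larvae (called lower in the authors' deposited table, q = 0.00976), while the Notch receptor gene glp-1 stood at 2.46 against 3.57. The summed level of the list was 82.2 FPKM in mutant larvae and 90.9 in wild-type larvae. The first sum holds lst-1 (6.41) and gld-2 (8.64), which were listed at 0 in wild-type larvae. The authors' deposited table called both of these higher (q = 5.5e-06 and q = 7.67e-06). The second sum holds glh-3 (2.86), which was listed at 0 in mutant larvae. The genes of that list above 0 in both libraries had a median difference of -0.25 over 16 genes, against -0.61 over the 27 meiotic chromosome genes above 0 in both. These medians were not compared by a test. The list also holds germ granule genes, so it does not separate mitotic from meiotic germ cells.

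Of 15 sperm genes 3 were measured, led by fog-3 at 0.970 against 3.48 FPKM, and the list summed to 4.54 FPKM in mutant larvae and 11.2 in wild-type larvae. Of 14 oocyte genes 7 were measured, with a median difference of -0.33, and oma-2, cbd-1, mex-5, egg-1 and rme-2 were listed at 0 in both libraries, which does not show that they were low. The oocyte list summed to 13.3 FPKM in mutant larvae and 13.8 in wild-type larvae. The first sum holds mei-1 (6.07) and mex-6 (0.674), which were listed at 0 in wild-type larvae. The second holds oma-1 (2.12) and spn-4 (2.22), which were listed at 0 in mutant larvae. In the somatic gonad 1 of 8 measured genes had a difference below 0, with a median of 0.48 and sums of 27.6 and 16.8 FPKM.

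Among body tissues the epidermis list had a median difference of 0.99 over 10 measured genes, led by elt-1 (8.05 against 1.73 FPKM), and sums of 628 and 428 FPKM. The body wall muscle list had a median of 0.73 over 7 measured genes and sums of 791 and 576, and unc-22, unc-15 and lev-11 were listed at 0 in both libraries. The neuron list had a median of 0.51 over 10 genes, 3 of them listed at 0 in wild-type larvae, and sums of 177 and 108 FPKM. The intestine list had a median of 0.03 over 8 measured genes and sums of 346 and 309, and ges-1 was listed at 0 in both libraries. The germ-line lists, and the intestine list, thus stood below the median of measured genes as the meiotic chromosome genes did, and the part of these shifts in the meiotic values was not tested.

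**Figure D4:**
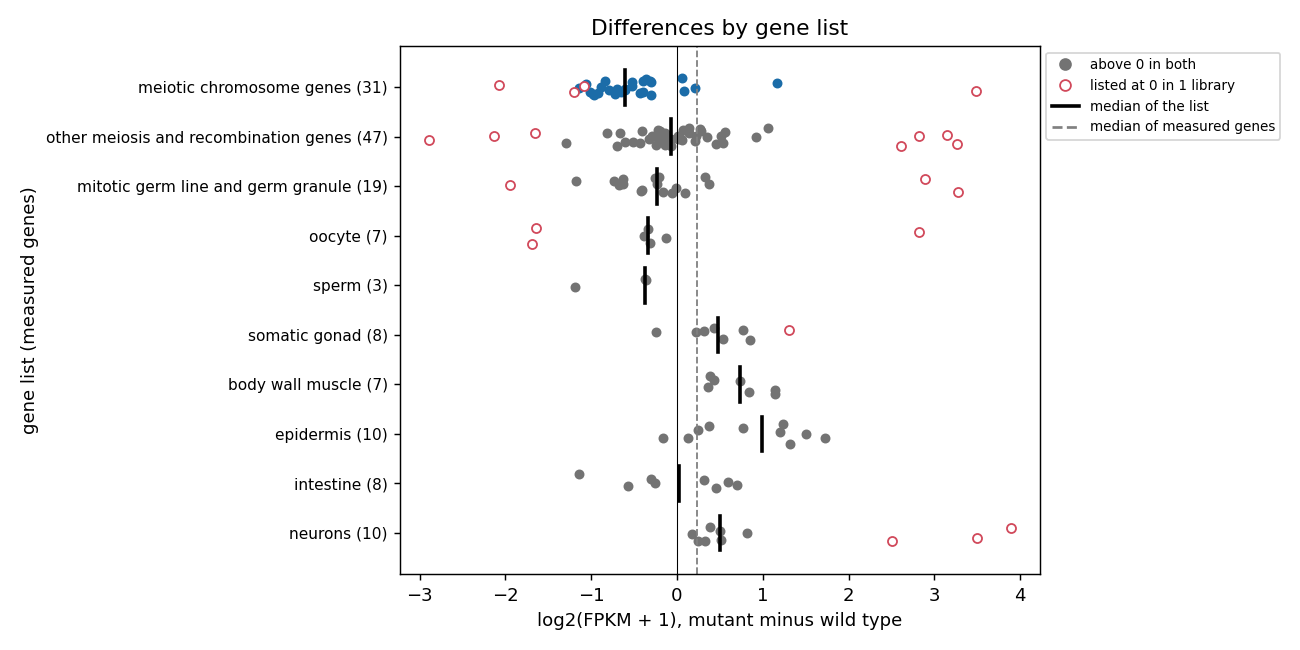
Difference in log2(FPKM + 1), mutant minus wild type, for the measured genes of each list (1 point per gene, open where the gene is listed at 0 in 1 library), with the median of each list as a black bar and the median of all measured genes (0.24) as a dashed line. The bars of the meiotic list (-0.61), the mitotic germ line and germ granules (-0.24), the oocyte (-0.33) and the sperm (-0.37) lie left of 0. Those of the somatic gonad, muscle, epidermis and neurons lie right of the dashed line.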

How the data were processed

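RNA of whole L3 larvae was measured in 2 libraries, 1 per genotype. Per the labels' protocols, ribosomal RNA was removed from total RNA and a TruSeq kit of Illumina was used for the libraries. Per the submitters' processing notes, TopHat, Cufflinks and Cuffdiff were used, without versions. Neither build nor annotation is stated in the labels or headers, and coordinates are left out. Per the file headers, the authors deposited 2 pairs of FPKM columns, and for each gene a log2 fold change with its p-value and q-value. The pair beside the test was used, and the further pair is an alternative. The authors' test sets the reads of 1 library against those of another, so it bears on these libraries, not on the genotypes.

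Differences used a pseudocount of 1. Medians and counts were computed with Python 3.11.15 and pandas 2.3.3 and are given beside the same over all measured genes. Depth was estimated from 2831 low genes with 1 transcript over 800 nt. Of their ratios, 84.6% were ratios of whole numbers up to 60 times a common step, with a relative tolerance of 1e-05. Fragments were FPKM times the longest transcript (Ensembl release 115, assembly WBcel235) times depth, rounded to whole fragments for the intervals. Counting intervals were exact (Clopper-Pearson, scipy 1.17.1) at 95%, and reads without molecular identifiers are not independent molecules. The scripts were tested on simulated data. All 35 members are accounted for. Of the other pathway genes those past the authors' test, the 3 at each end above 0 in both libraries, and, chosen after their values were seen, those listed at 0 in 1 library are named. At most 2 genes at each end of a tissue list were to be named. Some but not all markers listed at 0 were added, as was glp-1, which is at neither end of its list. Members and lists were chosen with earlier results of these data known. No sequences are printed.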

Additional observations from a re-analysis of the deposited data

How the results depend on the processing

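No paired analysis was possible because there is 1 library per genotype and the labels carry no replicate numbers. The median difference of the measured members, -0.61, stayed below 0 under every alternative run, from -0.31 with an FPKM of at least 5 (5 members) to -0.87 with a pseudocount of 0.1. It was -0.79 with both libraries scaled to the same protein-coding sum, -0.85 after centring, -0.59 with the further FPKM pair, -0.48 as a mean and -0.61 without htp-1, htp-2, coh-3 and coh-4. Chosen after seeing the data, it was -0.61 without members listed at 0 in 1 library. Chosen likewise, it was -0.70 without those on the list of genes also used outside meiosis. The count of 6 members lower by 2-fold was 12 with a pseudocount of 0.1, 12 after centring, 11 with the protein-coding sum, 3 among genes above 0 in every FPKM column, 2 with the further pair and 0 with an FPKM of at least 5. The count of 2 higher was 1 after centring, with the protein-coding sum and among genes above 0 in every column, and 3 with the further pair. The regulators' median was -3.62 with a pseudocount of 0.1, because 2 of its 3 genes are listed at 0 in the mutant. The median of the other meiosis genes, -0.07, was -0.27 with the protein-coding sum and -0.31 after centring. It turned to 0.52 with an FPKM of at least 5, where the median of all measured genes was 0.34. The cause of this turn was not tested. Of single members, spo-11, mre-11 and him-18, with differences of 0.09, 0.21 and 0.06, changed sign under at least 1 scaling, and no called member did. Depth limits single genes: with 1.5 to 69.1 fragments in the mutant, 9 of 22 counting intervals held 1.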
